A study of Mus musculus with 30 samples.

Results

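The genes described here are 7 genes that mark mature B cells and the follicles in which they gather, namely Cr2, Ms4a1, Cd79a, Cd79b, Fcer2a, Cxcl13 and Cxcr5. They were taken by symbol from the 24746 gene symbols counted in each of 30 libraries, and all 7 were found in every library. Each library held RNA from a piece of whole intestinal wall of an untreated or treated C3H/HeOuJ mouse, read as tags near the poly(A) tail of each transcript. There were 10 groups of 3 libraries. The distal colon was taken at 10 weeks of age from COL mice, which were born germ-free and given the microbiota of specific-pathogen-free animals in week 5, after 1.5% dextran sulfate sodium (DSS) for 4 days and plain water for 2 days, or without treatment. It was also taken at that age from specific-pathogen-free (SPF) mice with the same DSS course or without it. The terminal ileum was taken without treatment from COL, SPF and germ-free (GF) mice at 10 weeks and at 6 weeks, so COL mice of 6 weeks had met bacteria for about a week. Every group had the same strain, and the labels give no sex, litter or cage. Whether libraries of one group are separate animals is not stated in the labels; every p-value therefore measures the spread among these samples alone, and that spread may be technical.

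In lymphoid follicles of the gut, stromal cells and follicular dendritic cells release the chemokine CXCL13, and B cells that carry its receptor CXCR5 move toward it and settle. Such follicles form the Peyer's patches of the small intestine and lie scattered as isolated follicles along small and large bowel, so a piece of wall may or may not include one. Cr2 encodes complement receptor 2, a part of the B cell coreceptor that follicular dendritic cells also carry. Ms4a1 encodes the surface protein CD20, Cd79a and Cd79b encode the signalling chains of the B cell antigen receptor, and Fcer2a encodes CD23, the low-affinity receptor for IgE on mature follicular B cells. Cxcr5 is also made by T cells that help B cells in follicles.

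For 4 of the 7 genes (Cr2, Cd79a, Fcer2a and Cxcl13) the RefSeq table of promoters on GRCm38.p6 held a sequence. The 250 bases before the start are shown for a receptor gene of B cells, a second one that marks the mature follicular stage, and the chemokine gene, since these genes varied together across the ileum libraries described next. Capitals mark GGGNNNNNCC, an NF-kappaB-type motif, and TATAAA, the TATA box, on either strand; overlapping matches are merged.
Cr2: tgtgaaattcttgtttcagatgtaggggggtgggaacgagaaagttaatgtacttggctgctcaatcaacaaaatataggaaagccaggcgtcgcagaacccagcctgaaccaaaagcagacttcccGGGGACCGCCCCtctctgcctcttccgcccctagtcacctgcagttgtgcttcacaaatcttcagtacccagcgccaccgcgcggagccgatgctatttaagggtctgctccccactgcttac
Fcer2a: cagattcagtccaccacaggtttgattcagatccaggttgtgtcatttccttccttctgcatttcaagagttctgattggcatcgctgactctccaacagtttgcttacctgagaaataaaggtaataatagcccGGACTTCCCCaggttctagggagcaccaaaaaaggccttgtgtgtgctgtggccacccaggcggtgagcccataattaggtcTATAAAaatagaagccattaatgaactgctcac
Cxcl13: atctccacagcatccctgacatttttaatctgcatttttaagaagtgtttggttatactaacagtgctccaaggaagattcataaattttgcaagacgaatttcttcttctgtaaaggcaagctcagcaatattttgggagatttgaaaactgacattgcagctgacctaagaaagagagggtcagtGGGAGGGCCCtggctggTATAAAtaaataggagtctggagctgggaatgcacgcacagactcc
The Cr2 window is chr1:195176720-195176969 on the minus strand, the Fcer2a window, upstream of the first of 3 listed starts, is chr8:3694175-3694424 on the minus strand, and the Cxcl13 window is chr5:95956689-95956938 on the plus strand. The RefSeq span of the Cr2 gene reaches chr1:195176880, beyond the start used here. Part of the Cr2 window, its capitalised motif included, thus lies within that span. All 3 windows held the NF-kappaB-type motif, in 3 overlapping copies in Cr2, and 45.8% of all 32851 promoters in the table held it too. The windows of the other 2 Fcer2a starts, not shown, held neither that motif nor the TATA box. The TATA box lay 33 bases before the Fcer2a start and 46 bases before the Cxcl13 start, and 12.4% of promoters had one within their 250 bases. The octamer ATGCAAAT (1.6% of promoters), the EBF-type motif TCCCNNGGGA (0.779%) and the ETS core AGGAAGT (7.69%) had no match in these 3 windows, and the E-box CANNTG (66.2%) was searched but not capitalised. The Cd79a window, not shown, held the ETS core 55 bases and the NF-kappaB-type motif 146 bases before the start. It had no octamer, EBF-type motif or TATA box.

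In mm10 with GENCODE vM21 the 7 genes are protein-coding and lie on 7 chromosomes. Cr2 is at chr1:195136811-195176716, Ms4a1 at chr19:11249675-11266241, Cd79b at chr11:106311341-106314762, Fcer2a at chr8:3681737-3694175 and Cxcr5 at chr9:44511787-44561877, all on the minus strand. Cd79a at chr7:24897381-24902197 and Cxcl13 at chr5:95956951-95961068 are on the plus strand. Ms4a1 lies within the antisense gene 4930526L06Rik, which had 18 reads in all libraries together, and the last 110 bases of Cxcr5 overlap Bcl9l on the other strand, which had 7172 reads. That overlap lies at the end of Cxcr5 where tags are read, and whether Bcl9l reads add to the low Cxcr5 counts was not tested. The strand setting and the annotation used for counting are not given in the sources used here. Cd79a had at most 20 reads in any library while its partner Cd79b had up to 780. The 3′ end of Cd79a lies 339 bases further in GENCODE than in RefSeq, and whether that affects its tags was not tested.

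Libraries held 2233837 to 9088573 reads assigned to genes, so that 1 read was worth 0.11 to 0.448 CPM, a gene's reads per 1000000 reads in genes. A gene without a read could have up to 0.33 to 1.34 CPM, taking 3 reads as the limit that a count of 0 allows; this and the intervals below cover counting error only, because the tags have no molecular identifiers. Summed CPM of 6 epithelial marker genes was 5676 to 9832 over the libraries, so all of them held gut epithelium. In each of the 30 pairs of libraries from the same group the counts differed by more than sampling noise, with 5.46 to 52.2 as the ratio of chi-square to its degrees of freedom.

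At 10 weeks all 3 COL ileum libraries had high levels of the B cell genes, while SPF and GF ileum each had 1 high library and 2 that were much lower. In replicates 1, 2 and 3, Cr2 had 24.2, 62.3 and 37.6 CPM in COL ileum, against 140, 0.609 and 0.448 CPM in SPF ileum and 13.5, 0 and 1.16 CPM in GF ileum. Ms4a1 had 36.9, 98.3 and 31.9 CPM in COL ileum, against 187, 0.406 and 0 CPM in SPF ileum and 11.3, 0.468 and 0.194 CPM in GF ileum. Cd79b had 19.1, 67 and 32.8 CPM in COL ileum, against 115, 5.27 and 1.34 CPM in SPF ileum and 12.8, 0.156 and 0.97 CPM in GF ileum. For these 3 genes the COL libraries lay above every GF library, and the SPF library numbered 1 lay above all of them. In whole tissue, fewer cells of a type and less RNA per cell cannot be told apart.

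**Figure D1:**
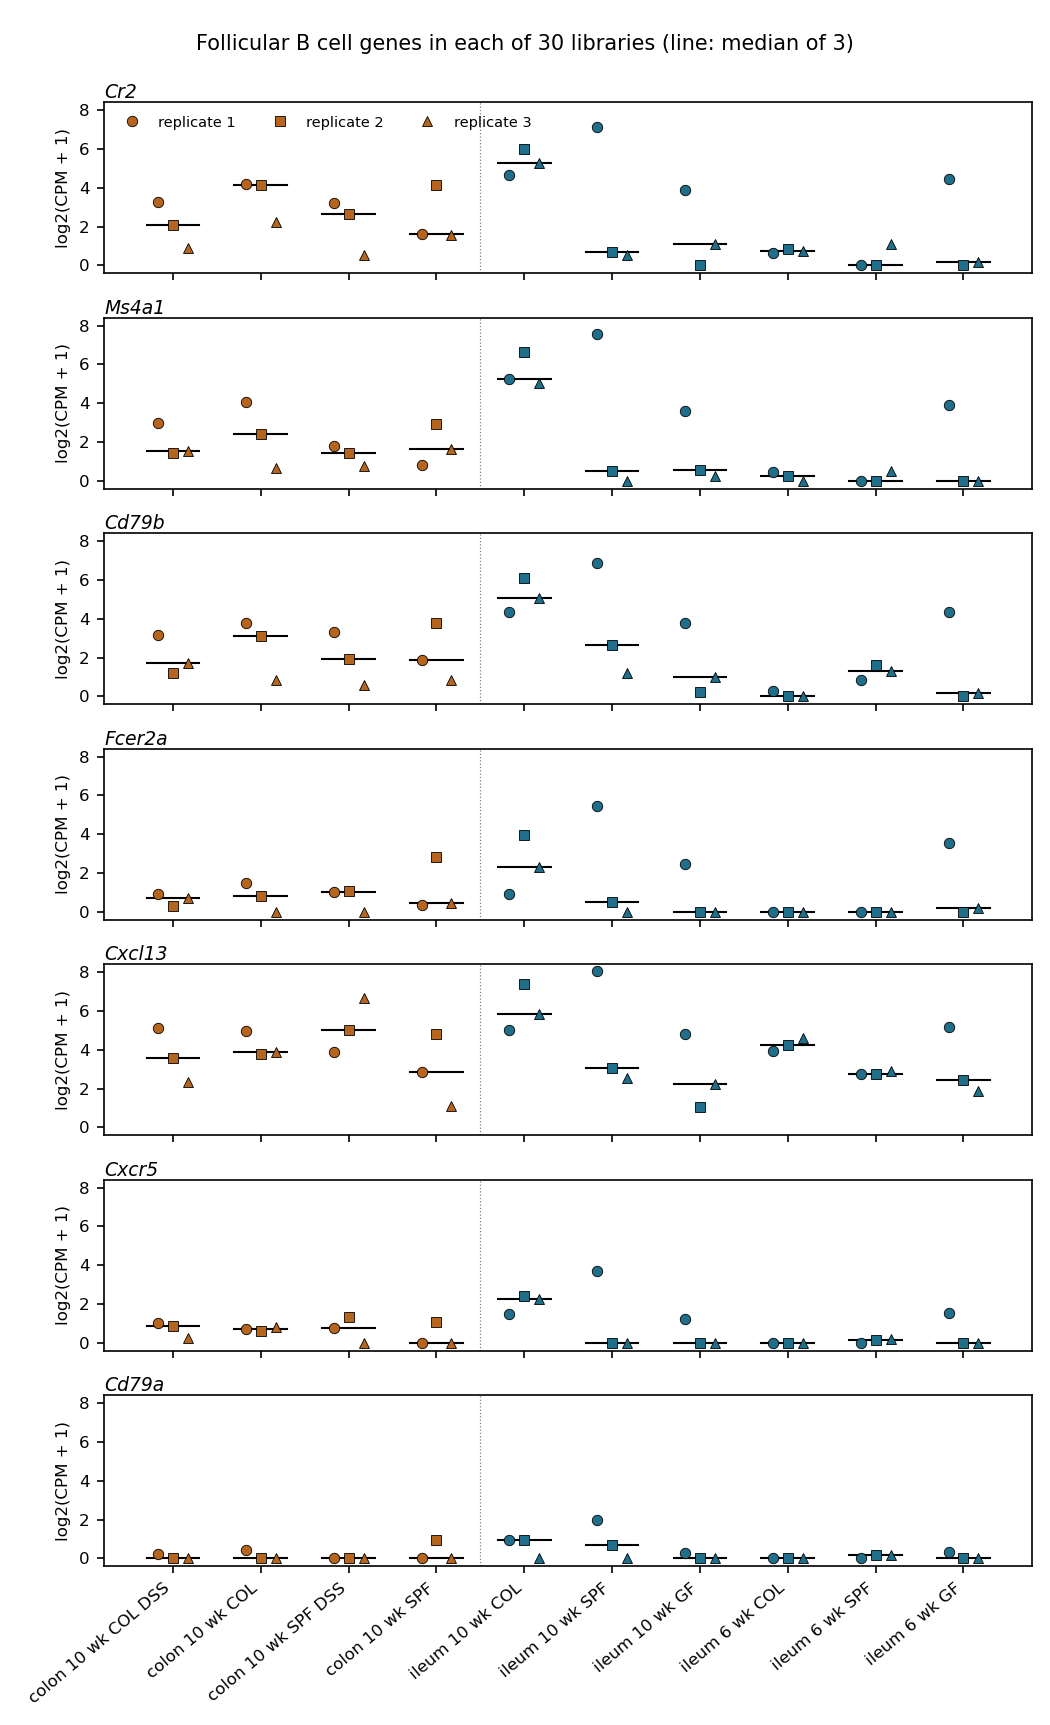
CPM of each of the 7 genes in the 30 libraries, as log2(CPM + 1) on the vertical axis, with groups along the horizontal axis, replicate numbers as symbols and the median of 3 as a line (colon brown, ileum blue). Single libraries stand out in SPF and GF ileum, such as the SPF library with 140 CPM of Cr2, while the 3 COL ileum libraries of 10 weeks lie at 24.2 to 62.3 CPM.

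Fcer2a, the CD23 gene, followed the same libraries at lower levels. It had 0.91, 14.4 and 3.92 CPM in COL ileum at 10 weeks, against 43, 0.406 and 0 CPM in SPF ileum and 4.57, 0 and 0 CPM in GF ileum. Here the COL library with least, replicate 1, lay below the GF replicate 1, so these groups overlapped. Cd79a was too low to compare, with 10 reads over the COL, 23 over the SPF and 1 over the GF libraries of 10 weeks, and most of the SPF reads (20) were in replicate 1.

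The chemokine and its receptor had the same high libraries. Cxcl13 had 31.8, 164 and 55.4 CPM in COL ileum at 10 weeks, against 263, 7.3 and 4.92 CPM in SPF ileum and 26.8, 1.09 and 3.69 CPM in GF ileum. Its receptor gene Cxcr5 had 1.82, 4.32 and 3.74 CPM in COL ileum, against 12.1, 0 and 0 CPM in SPF ileum and 1.31, 0 and 0 CPM in GF ileum. Both were above every GF library in all 3 COL libraries. Unlike the B cell genes, Cxcl13 kept a measurable level in every ileum library, with at least 7 reads in each.

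None of these differences at 10 weeks passed the test, the quasi-likelihood test of edgeR on the 18 ileum libraries, adjusted over all genes by Benjamini-Hochberg. For COL against GF ileum 0 of 6 tested members were called, against 9.14% of all 13233 genes. The fitted log2 fold changes were 3.16 ± 1.84 for Cr2 (approximate standard error; adjusted p = 0.36), 3.89 ± 1.88 for Ms4a1 (adjusted p = 0.25), 3.16 ± 1.64 for Cd79b (adjusted p = 0.29) and 3.04 ± 1.44 for Cxcl13 (adjusted p = 0.24). Here and below, the value after ± is the absolute log2 fold change divided by the square root of the test's F statistic. The median over the 6 members was 3.1 and over all genes 0.01, and 5 of the 6 had COL libraries above all GF libraries, as had 15.4% of all genes. In a fit of only those 6 libraries Cxcr5 was called (log2 fold change 3.01 ± 0.89, adjusted p = 0.038, where 12.4% of genes were called), and the other 5 tested members were not. Cxcr5 had 10, 24 and 21 reads in COL and 6, 0 and 0 in GF ileum. It thus passed the filter on low counts only through the COL libraries, and its call is conditional on that.

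For SPF against GF ileum at 10 weeks 0 of 6 members were called, against 6.2% of all genes, although their median log2 fold change was 3.34 against 0.02 for all genes. Cxcl13 was the 1 member with an unadjusted p under 0.05 (3.16 ± 1.44, adjusted p = 0.26), as had 18.8% of all genes. The size of the difference depended on the libraries numbered 1: without SPF replicate 1 the fitted value was -0.59 for Cxcl13 and -2.94 for Cr2, and without GF replicate 1 it was 5.24 and 6.35. Same-numbered SPF and GF libraries of this age deviated together, but whether the numbers mark pairs is not known. Matched by number, Cxcl13 and Cd79b had more CPM in SPF in all 3 matches and Cr2 in 2 of 3. Some of these rest on few reads. In replicate 3, a small SPF library, Cd79b had 3 reads in SPF and 5 in GF, and Cxcl13 11 and 19. In replicate 2, Cr2 had 3 reads in SPF and 0 in GF. With the replicate number as a block Cxcl13 had 2.74 ± 1.36 (adjusted p = 0.33), and with both libraries numbered 1 left out, together with GF replicate 1 of 6 weeks, it had 1.52 ± 0.89 (adjusted p = 0.50). COL against SPF ileum gave 0 of 6 calls, against 0.0907% of all genes, with -0.17 ± 1.57 for Cr2 and -0.12 ± 1.26 for Cxcl13 (adjusted p = 0.99 for each). Leaving out that SPF library brought the values to 6.08 and 3.62 (adjusted p = 0.29 and 0.27).

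At 6 weeks the B cell genes were low in every ileum library except 1 GF library, with at most 2.09 CPM of any of them in the other 8. Cr2 had 0.581, 0.788 and 0.653 CPM in COL ileum, against 0, 0 and 1.16 CPM in SPF ileum and 21.1, 0 and 0.136 CPM in GF ileum. Ms4a1 had at most 0.387 CPM in COL and 0.434 CPM in SPF ileum, against 14.2, 0 and 0 CPM in GF ileum. Fcer2a had no read in any COL or SPF library and 10.7, 0 and 0.136 CPM in GF ileum. So the GF library numbered 1 had each of these genes well above the other 8 libraries of that age.

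Cd79b was also high in that GF library, and in addition COL and SPF ileum did not overlap. Cd79b had 0.194, 0 and 0 CPM in COL ileum, against 0.785, 2.09 and 1.45 CPM in SPF ileum and 19, 0 and 0.136 CPM in GF ileum (9.22% of all genes were lower in COL without overlap). With 1 read over the COL libraries and 35 over the SPF libraries, its ratio was 0.0377 (95% exact interval 0.000929 to 0.225), and edgeR's test did not pass (adjusted p = 0.85). Beside it, the summed CPM of 8 plasma cell genes was 497 to 649 in COL and 1514 to 1530 in SPF ileum of 6 weeks, and 3 of the 8 were called lower in COL, namely Derl3 (-2.48 ± 0.32, adjusted p = 0.00014), Jchain (-3.81 ± 0.39, adjusted p = 0.00014) and Tnfrsf17 (-4.08 ± 0.56, adjusted p = 0.00027). Their part in the Cd79b difference was not tested.

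Cxcl13 had 14.1, 17.7 and 23.3 CPM in COL ileum at 6 weeks, against 5.62, 5.72 and 6.37 CPM in SPF ileum and 35, 4.34 and 2.72 CPM in GF ileum. All 3 COL libraries lay above all 3 SPF libraries (as for 5% of all genes), while Cxcr5, Fcer2a and Cd79a had no read in the COL libraries and at most 0.145 CPM in the SPF libraries. The log2 fold change between COL and SPF was 1.69 ± 1.46 (adjusted p = 0.84) in the fit of all ileum libraries and 1.70 ± 0.29 (adjusted p = 0.0035) in a fit of only those 6, where the spread was estimated without the uneven libraries of other groups. In the fit of all ileum libraries 0 of 6 members were called, against 0.0982% of all genes, and in the fit of 6 libraries Cxcl13 was the single member called, against 0.533%. Cxcl13 made up 92.4, 94.7 and 97.3% of the reads of the 7 genes in the COL libraries of 6 weeks. It also made up most of them in the other ileum libraries of that age with few B cell reads, with 87.8, 71.2 and 65.7% in SPF and 100 and 87% in GF replicates 2 and 3, against 34.3% in GF replicate 1 of 6 weeks and 34.5% in the SPF library of 10 weeks with most reads. For SPF against GF and COL against GF ileum at 6 weeks 0 of 6 members were called, against 7.69% and 4.64% of all genes.

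Between the ages the COL ileum showed the most regular difference of the 7 genes. COL mice were colonized in week 5, so age and time since colonization cannot be told apart in them. All 6 tested members were higher at 10 than at 6 weeks in COL ileum without overlap, as were 21.1% of all genes. Cr2 was 61.8 times as high by pooled reads, with a fitted log2 fold change of 5.67 ± 2.30 (adjusted p = 0.22), and Cxcl13 4.4 times (1.93 ± 1.34, adjusted p = 0.51). The ratio for Ms4a1 was 332 (95% exact interval 113 to 1614) and for Cd79b 710 (interval 127 to 28087), while Fcer2a was at least 38.3-fold and Cxcr5 at least 19.7-fold higher, with 3 reads over the group as the floor. In the fit of all ileum libraries 0 of 6 were called, against 2.53% of all genes, and Cr2, Ms4a1, Cd79b and Cxcr5 had an unadjusted p under 0.05, as had 17.6% of all genes. Fitted with only those 6 libraries, the same 4 were called, with adjusted p = 7.4e-09, 3e-05, 1.4e-06 and 0.00099, where 5.18% of all genes were called. These 4 had at most 5 reads in a COL library of 6 weeks. They passed the filter on low counts only through the 10-week libraries, where they were high, so the calls are conditional on that. DESeq2 called 1 member, Cd79b (adjusted p = 0.0026), and 5.04% of all genes.

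SPF ileum also had higher means at 10 than at 6 weeks, but through 1 library. For Cr2 the SPF groups had 950 reads at 10 weeks, 946 of them in replicate 1, against 8 reads at 6 weeks. All 6 tested members had an unadjusted p under 0.05, as had 18.7% of all genes, with adjusted p from 0.13 to 0.26, so that 0 were called, against 1.37% of all genes. The ages overlapped for every member. Without SPF replicate 1 of 10 weeks the fitted log2 fold change was 0.57 for Cr2, against 6.82 ± 2.43 with it, and 0.01 for Cxcl13, against 3.75 ± 1.47. In GF ileum, where replicate 1 was high at both ages, the values were -0.44 ± 1.94 for Cr2 and -0.35 ± 1.48 for Cxcl13 (adjusted p = 1 for each), and 0 members were called, against 0.0302% of all genes.

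Tests of the difference between these differences gave no call either. The SPF minus GF difference was not called as changing with age for any of 6 members (0.0151% of all genes called), nor was the COL minus GF difference (0.144%). At an unadjusted p under 0.05 each of these interactions had 2 members, against 8.55% of all genes for SPF and 10.4% for COL, namely Cr2 (adjusted p = 0.57) and Ms4a1 (adjusted p = 0.56) in the SPF one, and Ms4a1 (adjusted p = 0.48) and Cd79b (adjusted p = 0.39) in the COL one. For any difference among the 6 ileum groups 0 of 6 members were called, against 15.3% of all genes, and the lowest adjusted p was 0.069, for Ms4a1.

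In the colon every library had some reads of Cr2, Ms4a1, Cd79b and Cxcl13, and no group stood apart. Cr2 had 8.54, 3.17 and 0.825 CPM in DSS-treated COL colon and 17.1, 16.7 and 3.66 CPM in untreated COL colon. In SPF colon it had 8.18, 5.31 and 0.472 CPM after DSS and 2.09, 16.5 and 1.95 CPM without treatment. Cd79b was 1.27 to 8.1 CPM in DSS-treated COL, 0.771 to 12.6 CPM in untreated COL, 0.472 to 9.05 CPM in DSS-treated SPF and 0.778 to 12.7 CPM in untreated SPF colon. The 4 groups overlapped for both genes, and in each group the highest library had at least 4.67 times the CPM of the lowest.

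Cxcl13 in colon had one high library. It had 34, 10.8 and 4.12 CPM in DSS-treated COL colon, against 30.2, 12.8 and 13.5 CPM in untreated COL colon. In SPF colon it had 13.7, 31.3 and 101 CPM after DSS and 6.27, 27.2 and 1.17 CPM without treatment. The DSS-treated SPF library with 101 CPM, replicate 3, had 0.472 CPM each of Cr2 and Cd79b and no read of Cxcr5 or Fcer2a, so that Cxcl13 made up 98.4% of its 434 reads of the 7 genes. That library also had the highest sum of 6 macrophage genes in the colon, 115 CPM, against 56.4 and 57.8 CPM in the other DSS-treated SPF libraries and 87.8 to 101 CPM in untreated SPF colon. It also had the lowest sums in colon of 6 epithelial genes (5676 CPM) and of 6 smooth muscle genes (907 CPM). Its sum of 5 fat genes was 114 CPM, against 16.2 and 42.9 CPM in the other DSS-treated SPF libraries. The part of these lists in its Cxcl13 level was not tested.

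DSS against no treatment called 0 of 4 tested members in SPF colon, against 24.1% of all 12855 genes, and 0 of 4 in COL colon, against 7.14%. In SPF colon the log2 fold change was 2.13 ± 1.06 for Cxcl13 (adjusted p = 0.17) and -0.44 ± 1.02 for Cr2 (adjusted p = 0.78). Without the SPF DSS replicate 3 the Cxcl13 value was 1.06, and without untreated SPF replicate 2 it was 3.79. In COL colon Cxcl13 had -0.15 ± 1.02 (adjusted p = 0.95) and Cr2 -1.50 ± 1.00 (adjusted p = 0.41). The DSS effect in COL minus that in SPF colon was -2.28 ± 1.47 for Cxcl13 (adjusted p = 0.69) and called 0 of 4 members and 0% of all genes.

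COL against SPF colon gave 0 of 4 calls both without treatment, against 0% of all genes, and after DSS, against 0.00778%. Untreated, Cr2 had a log2 fold change of 0.85 ± 0.98 (adjusted p = 0.87) and Ms4a1 1.06 ± 0.90 (adjusted p = 0.82). After DSS, Cxcl13 had -1.59 ± 1.03 (adjusted p = 0.73), which became -0.51 without SPF DSS replicate 3. For any difference among the 4 colon groups 0 of 4 members were called, against 20.5% of all genes. In that test Cxcl13 had the lowest adjusted p of the members, 0.37.

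The distal colon was set against the terminal ileum within untreated mice of 10 weeks. In COL mice 5 of 6 tested members were lower in every colon library than in every ileum library, as were 20% of all genes, with Fcer2a the exception. Ms4a1 had 15.5, 4.4 and 0.578 CPM in COL colon, against 36.9, 98.3 and 31.9 CPM in COL ileum (-3.08 ± 1.54, adjusted p = 0.15), and Cr2 had -1.79 ± 1.49 (adjusted p = 0.42). By the fit of all 30 libraries 0 of 6 were called, against 26.2% of all genes. By a fit of those 6 libraries alone Cr2, Cd79b, Cxcl13 and Cxcr5 were called lower in colon (adjusted p = 0.023, 0.038, 0.035 and 0.0051), where 32.1% of all genes were called. Cxcr5, with at most 4 reads in a COL colon library, passed the filter on low counts there only through the ileum libraries. In SPF mice the tissues overlapped for every member and 0 of 6 were called, against 32.5% of all genes. There the Ms4a1 value of -4.26 ± 1.69 (adjusted p = 0.06) became 3.29 without SPF ileum replicate 1.

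Across ileum libraries of the same group the 6 tested members spread more than nearly all other genes. In log2(CPM + 1), the standard deviation within groups of the 18 ileum libraries was 2.06 for Cr2, 2.14 for Ms4a1, 1.78 for Cd79b, 1.70 for Fcer2a, 1.71 for Cxcl13 and 1.01 for Cxcr5, against a median of 0.33 over all genes tested. At most 0.84% of genes had a larger value than any of these 6. Cd79a, near its detection limit, had 0.48, and 23.1% of genes had a larger value. In colon the values were lower for each of the 7, with 1.39 for Cxcl13 at the top and 0.30 for Cd79a at the bottom, against a median of 0.37, and 23.6% of genes had a larger value than Cxcr5 there.

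**Figure D2:**
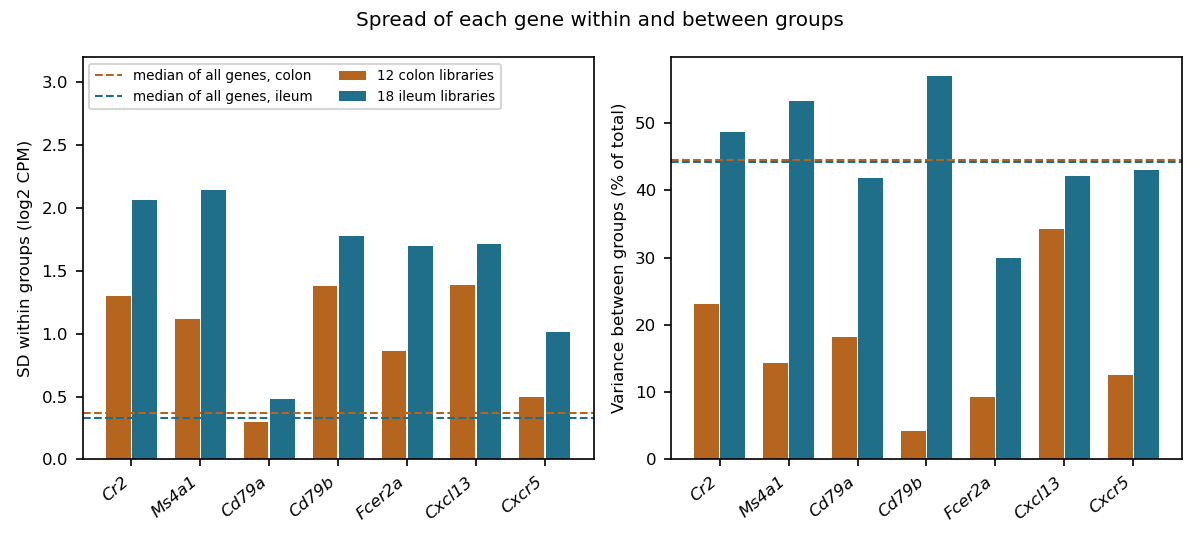
Standard deviation within groups (left) and share of variance between groups (right) of log2(CPM + 1) for each gene, in 12 colon and 18 ileum libraries, with dashed lines at the median of all genes tested. The bars of Cr2 and Ms4a1 on the left reach 2.06 and 2.14 in ileum, far above the lines at 0.33 and 0.37, while on the right every colon bar lies below its line at 44.5%.

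The share of the variance that lay between groups was 29.9 to 57% for the 7 genes in ileum, against a median of 44.2% over all genes. In colon it was 4.26% for Cd79b and 34.2% for Cxcl13, the lowest and highest of the 7, against 44.5%. So in colon each of the 7 lay below the median gene, and in ileum they lay on both sides of it. The gene-wise biological coefficient of variation in the edgeR fit was 1.08 for Cxcl13 to 2.35 for Fcer2a in ileum, against a median of 0.222.

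Deviations from the group means moved together from gene to gene. Over the 18 ileum libraries Pearson's r between the deviations of log2(CPM + 1) was 0.92 to 0.98 for the 15 pairs without Cd79a, and 19 of all 21 pairs had an adjusted p under 0.05 by permutation within groups. Cr2 and Ms4a1 had r = 0.98 (permutation p = 0.0032, adjusted over the 21 pairs 0.0061) and Spearman's rho 0.93 (p = 0.0036, adjusted 0.0084), and r was 0.95 without the 2 libraries farthest from the median. Cr2 and Cxcl13 had r = 0.97 (permutation p = 0.00043, adjusted 0.0048) and rho 0.96 (p = 0.00035, adjusted 0.0072), and r = 0.94 without 2 libraries. These libraries share a depth and a tissue piece for all genes, and most of the range comes from the high libraries already named.

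**Figure D3:**
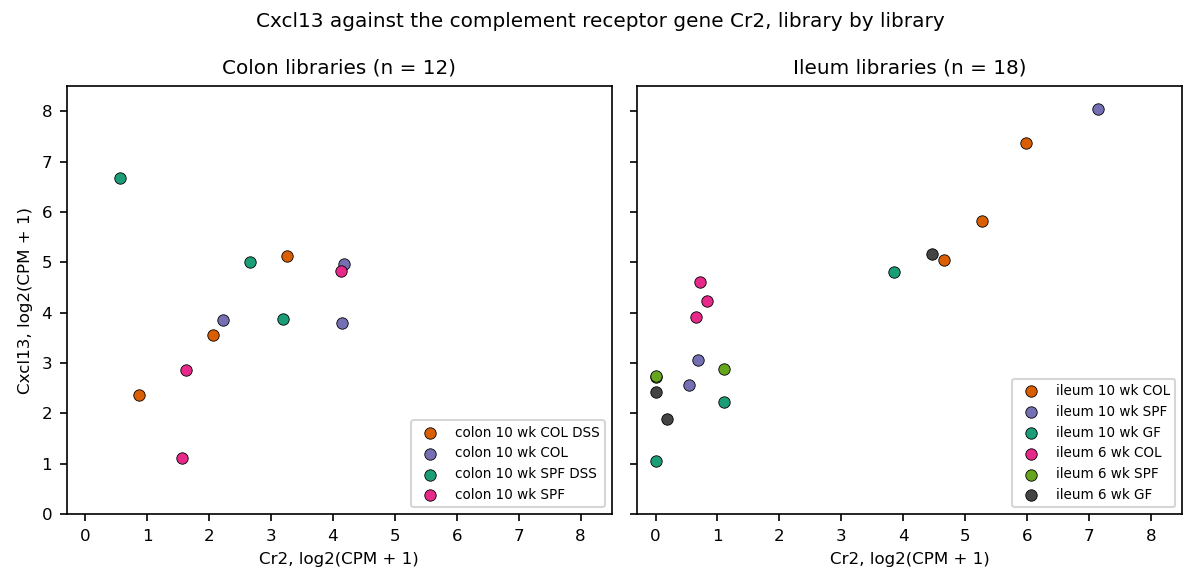
Cxcl13 against Cr2, both as log2(CPM + 1), in 12 colon libraries (left) and 18 ileum libraries (right), one point a library and one colour a group. In ileum the points rise together apart from the COL libraries of 6 weeks, which have 14.1 to 23.3 CPM of Cxcl13 at under 1 CPM of Cr2; in colon the DSS-treated SPF library with 101 CPM of Cxcl13 stands alone at 0.472 CPM of Cr2.

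In colon the pairing of chemokine and B cell genes was looser. The 10 pairs among Cr2, Ms4a1, Cd79b, Fcer2a and Cxcr5 had r from 0.44 to 0.90, and the 5 pairs of those genes with Cxcl13 had r from 0.33 to 0.42. Of the 21 pairs 5 had an adjusted p under 0.05, none of them with Cxcl13. Without the SPF DSS library numbered 3, left out after its values were seen, r with Cxcl13 over 11 libraries was 0.78 for Cr2, 0.58 for Ms4a1, 0.67 for Cd79b, 0.71 for Fcer2a and 0.86 for Cxcr5, with Spearman's rho 0.68, 0.42, 0.60, 0.55 and 0.80, given as a description. Whether colon and ileum differ in these correlations was not tested.

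The genes outside the 7 that are named next were chosen by the mean r of their deviations with the 6 tested members over all 30 libraries, and are among the 10 highest values. They were Fcmr (0.92), the receptor for IgM, Cd22 (0.92), an inhibitory partner of the B cell receptor, Chst3 (0.91), a sulfotransferase, and Ikzf1 (0.91), a transcription factor of lymphocytes. Next came Fcrla (0.90), H2-Ob (0.90), a class II chain that limits peptide loading in B cells, Glycam1 (0.89), which in mice carries ligands for L-selectin on the vessels through which lymphocytes enter, Fcrl1 (0.89) and Tnfrsf13c (0.89), the receptor for BAFF. Each of these genes had its highest CPM in the same library, SPF ileum replicate 1 of 10 weeks. Their choice by r with members that deviate most in that library favours this. Their mean r with the members was 0.95 to 0.97 in ileum and 0.59 to 0.81 in colon.

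Other lymphoid gene lists followed the libraries of the 7 genes only in part. T cell genes were called higher in 11 of 14 tested for SPF against GF ileum at 10 weeks (median log2 fold change 4.72, or 4.57 with 3 genes that had no read in GF at their bound) and in 11 of 14 for COL against GF ileum (3.96 either way), with medians of 0.02 and 0.01 over all genes, of which 6.2% and 9.14% were called in these comparisons. The T cell antigens Cd5 and Cd6, without a read in GF ileum, and Cd3d, at 0.125 CPM there, were among them. Cd3d had 8.88 CPM in COL ileum (5.92 ± 1.05, adjusted p = 0.00072). These 3 passed the filter on low counts only through other groups. Their calls, and those of any other listed gene with hardly a read in GF ileum, are conditional on that. Summed over 14 T cell genes the SPF ileum had 266, 85.4 and 132 CPM at 10 weeks, so the libraries numbered 2 and 3 were high in T cell genes with hardly a read of Cr2. In replicates 1, 2 and 3, GF ileum of that age had 14.4, 5.92 and 5.63 CPM and COL ileum 80.1, 170 and 120 CPM. GF ileum of 6 weeks had 37.4, 4.82 and 2.18 CPM. In every ileum group the T cell sum was highest in the library with the highest sum of the 7 genes.

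**Figure D4:**
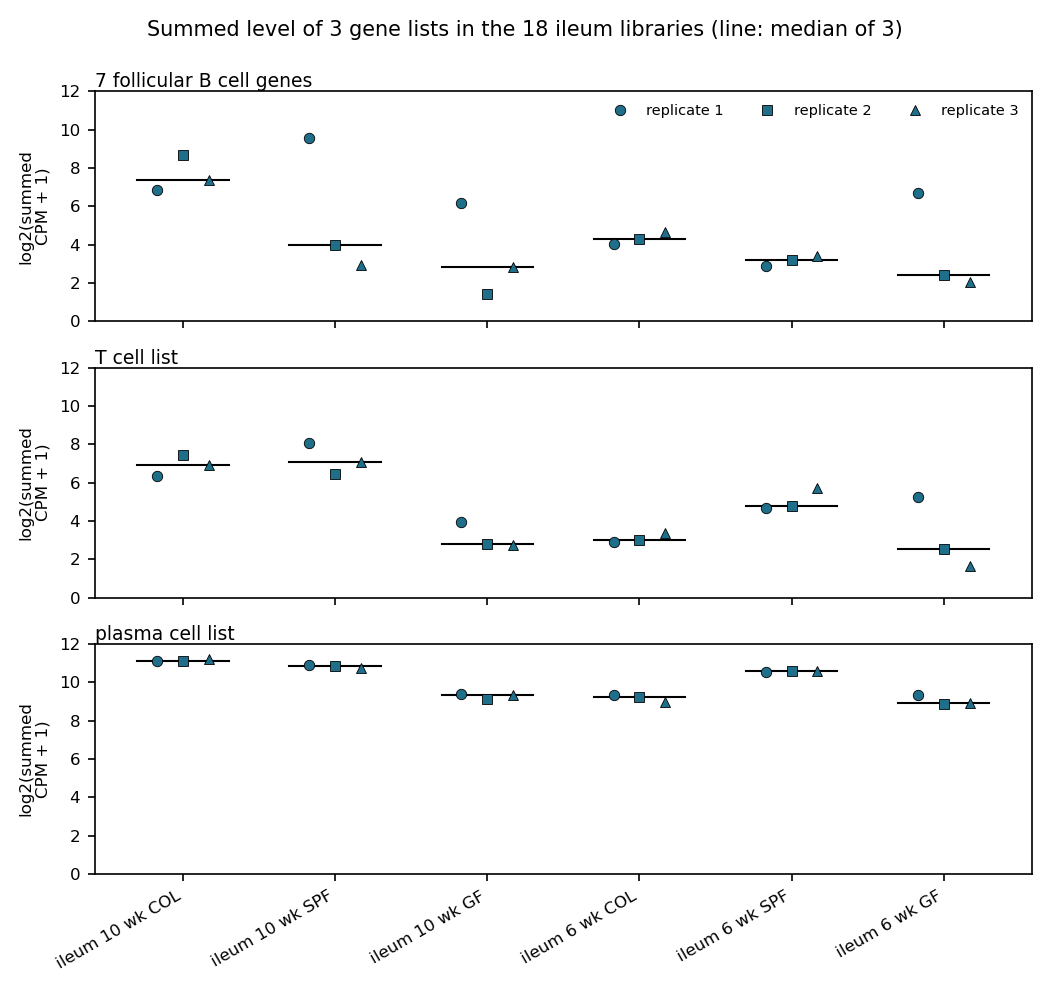
Summed CPM of the 7 follicular B cell genes, of 14 T cell genes and of 8 plasma cell genes in the 18 ileum libraries, as log2(summed CPM + 1), with replicate numbers as symbols and medians as lines. In SPF ileum of 10 weeks the B cell sum is 763, 14.6 and 6.71 CPM in replicates 1, 2 and 3 while the T cell sum stays at 85.4 CPM or above in all 3.

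Germinal centre genes, active where B cells mutate their receptors, were called higher in 4 of 8 tested for COL against GF ileum at 10 weeks (median 3.34), where 9.14% of all genes were called. They were Nuggc (3.43 against 0.052 CPM, adjusted p = 0.012), Rgs13 (5.76 against 0.0726 CPM, adjusted p = 0.014), the death receptor gene Fas (43.1 against 20.6 CPM, adjusted p = 0.017) and Gcsam, without a read in GF (adjusted p = 0.039). For SPF against GF ileum, where 6.2% of all genes were called, 2 of 8 were called, Rgs13 (adjusted p = 0.02) and Nuggc (adjusted p = 0.043). Nuggc, Rgs13 and Gcsam, with hardly a read in GF ileum, passed the filter on low counts only through other groups. Their calls are conditional on that. Of 17 tested pan-B genes, 1 was called for COL against GF ileum at 10 weeks, Pou2af1 (100 against 6.86 CPM, 3.89 ± 1.10, adjusted p = 0.046), a coactivator of B cell transcription that plasma cells also make, and this count is no larger a share than that of all genes. Plasma cell genes were called higher in 6 of 8 for both comparisons, among them Jchain, the joining chain of secreted IgA (1144 CPM in COL and 813 CPM in SPF, against 59.5 CPM in GF ileum). Among follicle stroma and chemokine genes, 4 of 13 were called higher in COL than in GF ileum, including Tnf (5.22 against 0.29 CPM, adjusted p = 0.0031) and Tnfsf13b, which encodes BAFF (10.8 against 2.87 CPM, adjusted p = 0.015). The Tnf call is conditional on the filter in the same way.

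Between ages in COL ileum, where 2.53% of all genes were called, T cell genes were called higher in 9 of 14 and plasma cell genes in 5 of 8. Of 17 pan-B genes 1 was called, Pou2f2, the octamer factor OCT2 (10.8 against 0.0657 CPM, adjusted p = 0.038). Pou2f2 passed the filter on low counts only through other groups than COL ileum of 6 weeks. Its call, and that of any listed gene with hardly a read in that group, is conditional on that. Whether the lists differ from each other was not tested. Sums of 6 smooth muscle genes, which reflect how much muscle a piece held, were 1881 to 2095 CPM in COL ileum, 1433, 1812 and 197 CPM in SPF ileum replicates 1, 2 and 3, and 2064 to 3291 CPM in GF ileum at 10 weeks. Sums of 5 fat genes were 180 to 319 CPM in COL ileum, 247, 196 and 80.6 CPM in SPF ileum replicates 1, 2 and 3, and 65 to 566 CPM in GF ileum of that age. The sum of 8 genes of follicle-associated epithelium and M cells was 281, 109 and 120 CPM in those SPF libraries, highest in the one with most B cell reads, as was the sum of 16 follicle stroma and chemokine genes, with 1628 CPM there against 199 to 274 CPM in the other SPF libraries. The part of these lists in the levels of the 7 genes was not tested.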

How the data were processed

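The deposited files hold raw read counts per gene symbol for 30 libraries of 3′ tag RNA-seq (QuantSeq, read on an Ion Torrent instrument, per the labels' protocols). Per the submitters' processing notes reads were handled with STAR 2.5.3a, HTSeq, FastQC 0.11.5 and Trimmomatic 0.36 on build mm10; the annotation and strand setting are not given in the sources used here. The 5 summary lines of each file were left out of library sizes; reads in genes were 44.6 to 54.1% of each file's total. Counts were divided by reads in genes to give CPM. Tests used edgeR 4.0.16 in R 4.3.3 (quasi-likelihood, TMM, default filter by group, Benjamini-Hochberg adjustment over all genes tested, calls at adjusted p under 0.05), in 1 fit for 12 colon libraries (12855 genes), 1 for 18 ileum libraries (13233 genes) and 1 for all 30 (13807 genes, for colon against ileum). The filter passed Cr2, Ms4a1, Cd79b and Cxcl13 in colon and all members but Cd79a in the other fits. The script was tested on simulated data. Correlations used 100000 permutations within groups with numpy 2.4.6 and scipy 1.17.1, of log2(CPM + 1) minus group means; Benjamini-Hochberg adjustment was over the 21 pairs. Alternatives were DESeq2 1.42.0, no filter, DESeq2 size factors, a replicate block, fits of only the compared libraries and leaving out each library. Members and gene lists were chosen with earlier results of these data known. Named genes are the 7 members, up to 4 called genes of each list and comparison by smallest p, and the 10 genes most correlated with the members, of which 1 is not reported here; list genes named with calls or sums outside that rule were chosen after their values were seen. Same-numbered SPF and GF ileum libraries of 10 weeks deviated together (r = 0.246, 0.189 and 0.159), which was taken as possible pairing there. Differently numbered libraries reached a like value (COL replicate 2 with SPF replicate 1 of 10 weeks, r = 0.242). GF libraries of 10 and 6 weeks had 0.235, 0.24 and 0.0122 by number and were not taken as pairs. Pairing is thus not shown, and the block changed no member's call for SPF against GF ileum at 10 weeks.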

Additional observations from a re-analysis of the deposited data

How the results depend on the processing

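The main fits called 0 members in each of 20 comparisons, and 91 of 105 recounts under other settings, leave-one-out apart, also gave 0. With the replicate block, which rests on numbers shared by the labels, 1 member was called for COL against GF ileum at 10 weeks (Ms4a1, 6.33 ± 1.72, adjusted p = 0.046), 3 among the 6 ileum groups (Ms4a1, Cxcr5 and Cd79b) and 2 for colon against ileum in COL mice (Ms4a1 and Cd79b). Of all genes, the block fits called 9.33%, 14% and 25.9% in these comparisons. Fits of only the 6 compared libraries called 1 for COL against SPF ileum at 6 weeks, 1 for COL against GF ileum at 10 weeks, 4 for 10 against 6 weeks in COL ileum and 4 for colon against ileum in COL mice. Of all genes, they called 0.533%, 12.4%, 5.18% and 32.1%. Some of the members called in fits of 6 libraries passed the filter on low counts only through the group where they were high, as given above. DESeq2 called 1 each for 10 against 6 weeks in COL ileum (Cd79b), the same in SPF ileum (Ms4a1, adjusted p = 0.041) and any ileum difference (Cd79b). Of all genes, it called 5.04%, 4.38% and 19.4%. For Ms4a1 in SPF ileum of 10 weeks, 1267 of 1269 reads were in replicate 1. Without that library the edgeR value between ages was 0.90, against 8.52 with it. Leaving out the 3 ileum libraries with most B cell reads in the SPF and GF groups, chosen for those values and so no independent test, gave 6 calls for COL against GF ileum at 10 weeks, 4 for COL against SPF ileum at 10 weeks, 6 among the ileum groups and 1 for SPF against GF ileum at 6 weeks. Of all genes, 9.92%, 1.25%, 15.1% and 6.68% were called in that fit. There Cxcr5 between ages in SPF ileum became -2.41, and the change with age of the SPF minus GF difference became -1.98 for Cr2 and -3.16 for Ms4a1. Leaving out 1 library at a time gave 0 to 2 calls among the ileum groups, 0 to 2 for colon against ileum in SPF mice and 0 elsewhere, and the median over the 7 genes of the share of variance between groups in 30 libraries, 40.5%, ranged from 37.6 to 54.6%. Over all genes, 1517 to 2433 were then called among the ileum groups and 3580 to 4644 for colon against ileum in SPF mice. Values turned sign without SPF ileum replicate 1 of 10 weeks, and over the libraries left out ranged from -0.59 to 5.24 for Cxcl13 in SPF against GF ileum, from -2.38 to 5.73 for Cxcr5 between ages in SPF ileum and, for colon against ileum in SPF mice, from -4.69 to 0.67 for Cxcl13, -7.49 to 4.02 for Cxcr5 and -5.32 to 3.29 for Ms4a1; fitted values of genes with 0 to 3 reads in a group depend on the prior count. Beyond fewer samples, the cause of these changes was not tested. Counts over all genes that moved by over 1.5 times were, in fits of 6 libraries, 1728 against 3097 (DSS, SPF colon), 1839 against 918 (DSS, COL colon), 1604 against 1018 (SPF against GF, 6 weeks), 502 against 821 (SPF against GF, 10 weeks), 636 against 335 (age, COL), 29 against 181 (age, SPF) and 2551 against 4484 (tissue, SPF). For COL against SPF they gave 66 against 13 at 6 weeks, 4 against 12 at 10 weeks and 0 against 1 after DSS. DESeq2 gave 710 against 335 (age, COL), 572 against 181 (age, SPF), 10 against 4 (age, GF), 64 against 13 and 46 against 12 (COL against SPF ileum, 6 and 10 weeks), 28 against 0 and 4 against 1 (COL against SPF colon, untreated and DSS), and for the interactions 12 against 0 (DSS), 28 against 2 (SPF, age) and 138 against 19 (COL, age). Without the filter 8 were called against 0 (COL against SPF colon), 7 against 2 and 50 against 19 (interactions with age). The block gave 0 against 1 (COL against SPF, DSS), 6 against 12 (COL against SPF, 10 weeks), 109 against 181 (age, SPF) and 29 against 19 (COL, age interaction), and without the 3 libraries 495 against 821, 168 against 12, 82 against 181, 0 against 4, 0 against 2 and 107 against 19 were called for SPF against GF and COL against SPF at 10 weeks, age in SPF and GF, and the SPF and COL interactions with age. Depth limits Cd79a, with at most 20 reads in a library, and the members other than Cxcl13 in most 6-week ileum libraries, where 3 reads are 0.33 CPM or more.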
